A study of Mus musculus with 2 samples.

Results

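A set of 9 genes of fat cell formation and lipid storage was followed through the cell classes of dystrophic muscle. They are Pparg, Cebpa, Cebpb, Cebpd, Fabp4, Plin2, G0s2, Adipoq and Klf4, chosen by symbol, and all 9 were found among the 24984 gene symbols counted in both libraries. Fat cell formation is driven by a relay of transcription factors. CEBPB and CEBPD act early and switch on CEBPA and PPARG, which keep each other active and turn on the genes of the lipid-filled cell. KLF4 is an early factor that binds the Cebpb promoter. FABP4 carries fatty acids in the cytoplasm, PLIN2 coats lipid droplets, G0S2 inhibits the lipase that opens them, and ADIPOQ is the hormone of mature adipocytes. In muscle, fibro/adipogenic progenitors (FAPs) are the stromal cells that can become fat cells, and several of these genes also work elsewhere: FABP4 in capillary endothelium, PLIN2 and PPARG in lipid-handling macrophages, and KLF4 in endothelium and monocytes.

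The 2 libraries of live mononuclear cells from hind limb muscle that were compared were both from mdx mice, which lack dystrophin. Ctrl mice were Pax7-CreERT2/R26YFP; Yy1+/+; mdx and dKO mice Pax7-CreERT2/R26YFP; Yy1 f/f; mdx, so the Cre is active only in muscle stem cells (MuSCs) and the other cell classes were not themselves targeted. Per the study's methods both groups received tamoxifen at 100 mg/kg for 5 days at 1.5 months of age and were taken 1 month later, with 3 mice pooled per library, whereas the label of the Ctrl sample gives no treatment. With 1 library per group there is no replicate check, no test was run, and every interval below is a 95% interval that covers counting error only. Levels are unique molecular identifiers (UMIs, each 1 captured RNA molecule) summed over a class and scaled by the class total to CPM, and differences are log2 ratios of the dKO to the Ctrl level.

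The libraries held 4527 and 3483 barcodes with medians of 7697 and 7615 UMIs, of which 4010 Ctrl and 3079 dKO cells were kept, and 7 barcodes occurred in both. Classes were named from marker genes and are written as "like". FAP-like cells numbered 1133 and 1187, monocyte/macrophage (MO/MP)-like cells 1420 and 1133, and endothelial cell (EC)-like cells 465 and 179, or 11.6% and 5.81% of cells. In MuSC-like cells (117 and 30) the targeted gene Yy1 had 369 UMIs in Ctrl and 3 in dKO. The neutrophil marker list summed to 3033 CPM over all Ctrl cells and 447 CPM over all dKO cells, and the endothelial list to 743 and 332 CPM. Their part in the differences below was not tested except where a value is given.

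The regulators are known to be controlled through their promoters, and the upstream windows of 2 of them are shown because they hold letters of sites that the relay is known to use. Windows of 250 bases before a start site were taken from RefSeq (GRCm38.p6), which matched 7 of the 9 genes with 9 windows; Cebpd and Fabp4 were not matched. Motifs searched on both strands were the C/EBP core TTGCNNAA, the PPAR response element, the YY1 core GCCATNTT and the TGACG motif of the cAMP response element. The TATA box TATAAA was searched on the plus strand of the gene only. No match overlapped another in the 2 windows, and matches are in capitals.
Pparg, start inside the gene, chr6:115421816-115422065, plus strand: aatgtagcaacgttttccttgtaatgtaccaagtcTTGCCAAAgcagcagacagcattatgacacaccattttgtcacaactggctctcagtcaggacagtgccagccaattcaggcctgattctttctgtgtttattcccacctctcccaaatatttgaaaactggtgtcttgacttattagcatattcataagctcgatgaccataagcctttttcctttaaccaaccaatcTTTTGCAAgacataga
Cebpb, chr2:167688665-167688914, plus strand: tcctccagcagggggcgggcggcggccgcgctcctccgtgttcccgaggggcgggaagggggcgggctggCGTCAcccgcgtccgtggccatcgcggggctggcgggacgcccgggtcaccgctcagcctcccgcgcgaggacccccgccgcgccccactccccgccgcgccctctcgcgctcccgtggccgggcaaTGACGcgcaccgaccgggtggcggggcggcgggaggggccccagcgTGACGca

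The Pparg window, the most downstream of its 3 start sites, holds the C/EBP core at -215 and at -16 (first base of the match, counted back from the start site), and 9.56% of all 32851 windows hold it at least once. The Cebpb window holds the cAMP motif at -180, -53 and -7, a letter run found in 17.8% of windows. Among the other windows, G0s2 and Klf4 each hold 1 cAMP motif (at -246 and -232) and Cebpa holds a TATA box at -30, found in 7.59% of all windows. Neither the YY1 core nor the PPAR element occurred in any of the 9 windows, against 3.91% and 0.338% of all windows. These matches describe letters and say nothing of binding.

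**Figure D1:**
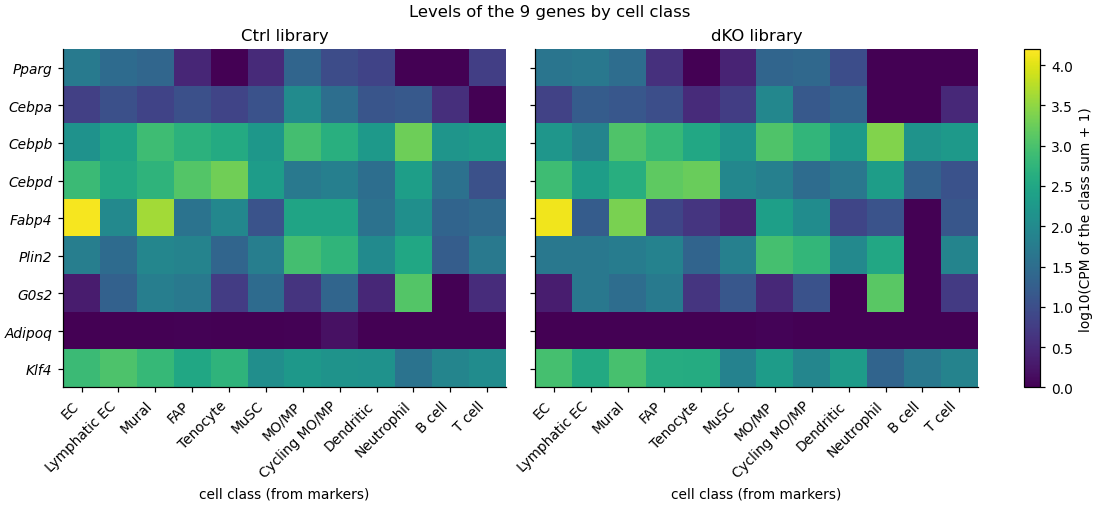
Levels of the 9 genes by cell class in each library, as log10(CPM + 1) of the summed UMIs of the class (color). Fabp4 was brightest in EC-like cells, Plin2 in MO/MP-like cells, G0s2 in neutrophil-like cells and Cebpd in tenocyte-like and FAP-like cells, while Adipoq stayed near 0 in every class.

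Of Fabp4 UMIs, 81.2% in Ctrl and 80.2% in dKO came from EC-like cells. MO/MP-like cells held 80.1% and 81.2% of Plin2 UMIs, 82.6% and 79.0% of Cebpa UMIs and 57.6% and 62.1% of Pparg UMIs. Cebpb was split between these and FAP-like cells, with 49.3% and 43.2% of its UMIs in MO/MP-like cells and 34.2% and 49.0% in FAP-like cells. FAP-like cells held 73.6% and 88.0% of Cebpd UMIs, 53.7% and 83.4% of G0s2 UMIs and 43.9% and 64.6% of Klf4 UMIs. These shares also follow the number of cells, since FAP-like cells were 28.3% of Ctrl and 38.6% of dKO cells.

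Of these genes, 7 had at least 100 UMIs over both libraries in FAP-like cells, 6 in EC-like cells, 7 in MO/MP-like cells and 4 in mural-like cells (pericytes and smooth muscle). The mural-like cluster was also enriched for 10 of 10 endothelial markers, so its levels may include endothelial RNA. Past 2-fold, 0 of 7 were higher and 1 of 7 lower in dKO FAP-like cells, the lower one being Fabp4. Among all 10460 genes tested there, 0.755% were higher and 0.459% lower. In the EC-like class 0 of 6 passed in either direction, against 0.612% of 4736 genes higher and 1.16% lower. In MO/MP-like cells 0 of 7 passed, against 1.17% of 8707 genes higher and 0.574% lower, and in mural-like cells 0 of 4, against 1.66% of 1811 genes higher and 3.53% lower. The median log2 ratio of the genes tested was 0.06 for FAP-like, 0.01 for EC-like and 0.04 for MO/MP-like cells, beside -0.05, -0.02 and 0.00 over all genes. In mural-like cells it was 0.09 beside 0.04.

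**Figure D2:**
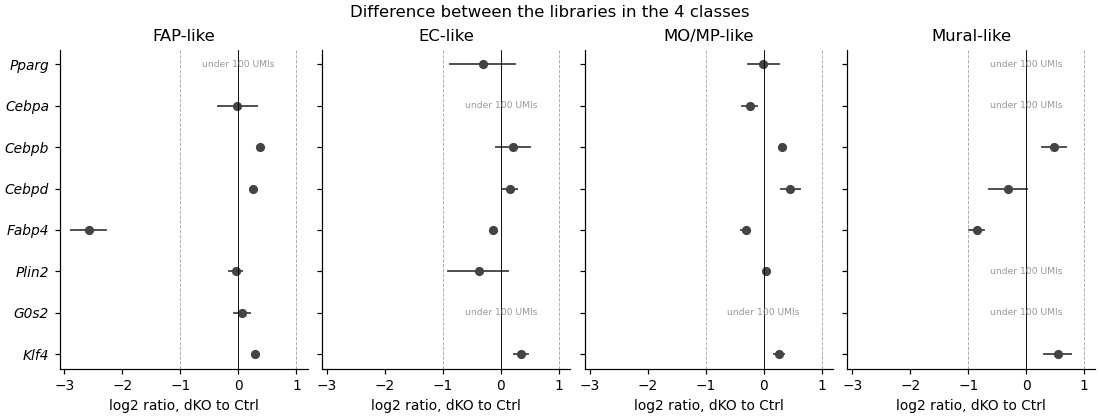
Log2 ratio of the dKO to the Ctrl level (x axis) of each gene in 4 cell classes, with the 95% counting interval as a line and dashed lines at 2-fold; genes under 100 UMIs have no point and Adipoq is not drawn. Fabp4 in FAP-like cells, at -2.58, is the only point beyond a dashed line, and the other points lie between -0.85 and 0.54.

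Cebpb and Cebpd, the early factors of the relay, were higher in the dKO library in both of the large classes, by less than 2-fold. Cebpb in FAP-like cells was at 504 CPM in Ctrl (493 to 515) and 652 CPM in dKO (640 to 664), a log2 ratio of 0.37 (0.33 to 0.41). In MO/MP-like cells it was at 892 and 1110 CPM, a log2 ratio of 0.31 (0.28 to 0.35). Neutrophil-like cells had the highest Cebpb level of any class, 1888 CPM in Ctrl and 2527 CPM in dKO, from 99 and 36 cells. B cell-like and T cell-like cells together were at 178 and 167 CPM, a log2 ratio of -0.09 (-0.45 to 0.27).

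Cebpd was a stromal gene here. It stood highest in tenocyte-like cells (1982 CPM in Ctrl and 1752 CPM in dKO) and then in FAP-like cells (1212 and 1444 CPM), followed in Ctrl by EC-like cells (718 CPM, 686 to 751) and mural-like cells (534 CPM, 485 to 587), and the intervals of these 4 Ctrl levels do not overlap. In FAP-like cells its log2 ratio was 0.25 (0.23 to 0.28), and in MO/MP-like cells, where it was low at 48.7 and 67.0 CPM, 0.46 (0.30 to 0.63), or 0.24 as a mean over cells. MuSC-like cells, the targeted cells, went the other way, with 483 Cebpd UMIs in Ctrl (209 CPM) and 53 in dKO (85.6 CPM), a log2 ratio of -1.29 (-1.73 to -0.88). A single Ctrl cell held 82 of those UMIs and 1 dKO cell held 24, from 117 and 30 cells. Stromal markers moved with it, summing to 921 CPM in Ctrl and 448 CPM in dKO MuSC-like cells (9 of 10 lower in dKO), and their part in the Cebpd difference was not tested.

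Klf4, a zinc finger factor, stood highest in Ctrl in the endothelial and mural-like classes. It was at 1062.5 CPM in lymphatic EC-like cells (18 cells), 728 CPM in EC-like cells (696 to 761), 661 CPM in mural-like cells (606 to 719) and 536 CPM in tenocyte-like cells (500 to 573), and the EC-like and mural-like intervals overlap. Only 13 of the 107 Ctrl mural-like cells had no endothelial-marker UMI, and the part of endothelial RNA in their Klf4 level was not tested. In dKO, EC-like cells were at 920 CPM and mural-like cells at 963 CPM. The log2 ratio was 0.34 in EC-like cells (0.22 to 0.46), 0.29 in FAP-like cells (321 and 393 CPM, 0.24 to 0.35) and 0.27 in MO/MP-like cells (174 and 209 CPM, 0.18 to 0.36). These 3 values shrank when each cell counted equally (the mean over cells of each cell's CPM), to 0.18 in EC-like, 0.088 in FAP-like and 0.040 in MO/MP-like cells, and in FAP-like cells thinned to 2000 UMIs each it was 0.093. The ratio of class sums was negative in tenocyte-like cells (-0.48, -0.67 to -0.30) and in MuSC-like cells (116 and 72.7 CPM, -0.68, -1.17 to -0.22).

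Klf4, Cebpb and Cebpd are also induced when tissue is taken apart, so 16 immediate early and dissociation genes were summed beside them. In FAP-like cells that sum was 25272 CPM in Ctrl and 23494 CPM in dKO, with 10 of 16 genes lower in dKO and a median log2 ratio of -0.05. In MO/MP-like cells it was 10156 and 13444 CPM, with 16 of 16 higher in dKO and a median of 0.47, and the part of this in the MO/MP-like values above was not tested. Cells with a Cebpb UMI carried Cebpd more often than cells without one: among FAP-like cells with at least 2000 UMIs (1070 of 1133 in Ctrl, 1133 of 1187 in dKO), each thinned at random to that number, the shares were 72.0% and 60.7% in Ctrl and 80.5% and 64.8% in dKO.

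Cebpa and Pparg, the later pair, were low in FAP-like cells, with intervals of the ratio that held 0. Cebpa was at 9.41 CPM in Ctrl and 9.30 CPM in dKO FAP-like cells (151 and 155 UMIs), a log2 ratio of -0.02 (-0.35 to 0.32), which turned to 0.38 at 2000 UMIs per cell, where 50 Cebpa UMIs were left over both libraries. Its main class was the MO/MP, at 104 CPM in Ctrl (98.3 to 109) and 87.8 CPM in dKO (81.6 to 94.2), a log2 ratio of -0.24 (-0.37 to -0.11). CEBPA is a factor of the myeloid lineage as well as of fat.

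Pparg was at its highest among the large classes in EC-like cells, at 51.0 CPM in Ctrl (42.8 to 60.3) and 41.3 CPM in dKO (28.9 to 57.2), and within them in the capillary-like subset, at 71.0 and 62.0 CPM against 17.3 and 26.3 CPM in venous-like cells. MO/MP-like cells were at 22.4 and 22.3 CPM and mural-like cells at 23.1 and 30.2 CPM, and their intervals overlap. Tenocyte-like cells had 0 Pparg UMIs in either library, which allows up to 1.92 CPM in Ctrl and 3.39 CPM in dKO. FAP-like cells had 29 UMIs in Ctrl (1.81 CPM) and 48 in dKO (2.88 CPM), a log2 ratio of 0.67 (-0.02 to 1.39), and 19 of the 48 lay in 1 cell.

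That dKO cell, picked out after the values were seen because it held the most G0s2 UMIs, held large shares of the UMIs of a few of these genes. It had 24704 UMIs and 4617 genes, with 9 of 10 stromal markers detected (786 UMIs), 1 endothelial UMI and 6 macrophage UMIs, and it belonged to the FAP subset led by C1qtnf3 and Cdkn1c. It held 262 of the 861 G0s2 UMIs of dKO FAP-like cells (30.4%), the next cell holding 101. It held 19 of 48 Pparg UMIs, 13 of 155 of Cebpa, 29 of 1203 of Plin2 and 2 of 109 of Fabp4, and for Pparg, Cebpa and G0s2 it was the highest of the 1187 cells. From the wider lists it held all 7 UMIs of Plin1, the droplet coat of mature fat cells, 28 of 52 of Dgat2, which makes triglyceride, 102 of 576 of Fabp5 and 258 of 8789 of Lpl, the lipoprotein lipase. Of the early factors it had 1 Cebpb UMI and 1 Cebpd UMI but 32 of 6543 Klf4 UMIs, or 1295 CPM beside 393 CPM for the class, and 29 cells, itself counted, held as many Klf4 UMIs or more. Of Adipoq it had none. With the cell of most G0s2 UMIs left out of each library, Pparg was at 29 and 29 UMIs in FAP-like cells, a log2 ratio of -0.05 (-0.85 to 0.74).

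No cluster led by adipocyte genes was found. Adipoq had 3 UMIs among 4010 Ctrl cells and 1 among 3079 dKO cells, 1 of them in a FAP-like cell. The 10 other adipocyte markers summed to 73 UMIs in Ctrl FAP-like cells (4.55 CPM) and 101 in dKO (6.06 CPM), of which the dKO cell just described held 35. Without the cell of most G0s2 UMIs in each library they were at 72 and 66 UMIs (4.49 and 3.97 CPM), with dKO the lower. Cidec, Lep and Retn were at 0 in FAP-like cells of both libraries, and Cidea, Pck1 and Aqp7 in those of dKO. Plin1 had 2 UMIs in Ctrl FAP-like cells.

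G0s2 was a neutrophil gene and, within FAP-like cells, a gene of some subsets. Neutrophil-like cells were at 1204 CPM in Ctrl (1093 to 1324) and 1328 CPM in dKO (1104 to 1585), a log2 ratio of 0.14 (-0.16 to 0.43), while EC-like cells had 3 and 1 UMIs. FAP-like cells were at 49.7 and 51.7 CPM, a log2 ratio of 0.06 (-0.08 to 0.20) that became -0.41 (-0.57 to -0.26) without the cell of most G0s2 UMIs in each library. At 2000 UMIs per cell the log2 ratio was -0.63. The neutrophil list summed to 34.4 CPM in Ctrl and 5.04 CPM in dKO FAP-like cells, and its part in the G0s2 level there was not tested.

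FAP-like cells fell into 8 subsets, clustered without the 9 genes and the wider lists. By fold, G0s2 itself was the first leading gene of the largest subset (437 and 345 cells), which is called here by the next genes, C1qtnf3 and Cdkn1c, so its G0s2 level is a description. This subset had G0s2 at 87.4 CPM in Ctrl and 143 CPM in dKO, a log2 ratio of 0.71 (0.54 to 0.88). Without the cell of most G0s2 UMIs in each library, the same subset was at 82.7 and 85.1 CPM, 0.04 (-0.16 to 0.24), a difference that rested on the dKO cell described above. The highest Ctrl level was in the Tenm2 Shisa3 subset, at 168 CPM in Ctrl and 136 CPM in dKO, from 17 and 9 UMIs. The subset led by Clu and Comp (197 and 281 cells) was at 72.3 and 35.5 CPM, -1.03 (-1.39 to -0.67), and that led by Tagln and Acta2 at 17.0 and 7.90 CPM, -1.11 (-1.85 to -0.41). The Pi16+ Dpp4+ subset, defined by markers of the FAPs that the study calls adipogenic, had 11 G0s2 UMIs in Ctrl and 43 in dKO, 1.57 (0.60 to 2.68), and 15 of the 43 were in 1 cell.

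**Figure D3:**
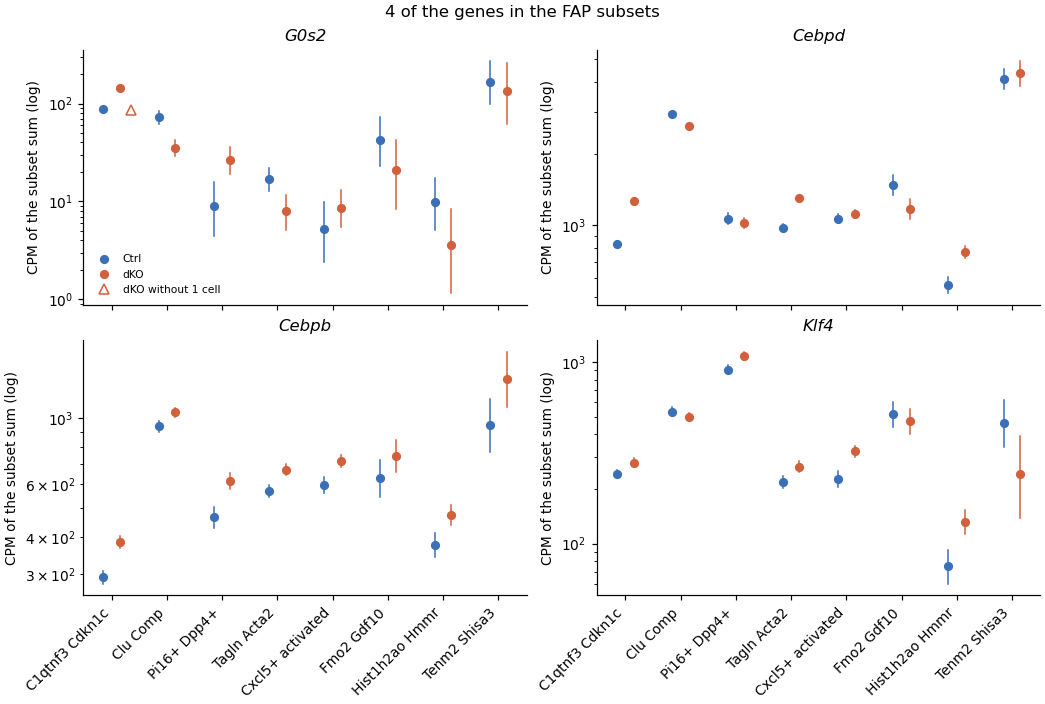
Levels of G0s2, Cebpd, Cebpb and Klf4 in the 8 FAP subsets (CPM of the subset sum, log axes, Ctrl blue, dKO orange, lines are 95% Poisson intervals; the open triangle leaves out the cell of most G0s2 UMIs). Cebpb is higher in dKO in all 8 subsets, whereas G0s2 is higher in 3 and lower in 5, and the triangle lies at the Ctrl point.

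Cebpb was higher in dKO in 8 of 8 subsets, with log2 ratios from 0.15 in the Clu Comp subset to 0.52 in the Tenm2 Shisa3 subset of 13 and 9 cells, and the interval lay above 0 in 7 of them. Cebpd was mixed: higher in the C1qtnf3 Cdkn1c subset (835 and 1266 CPM, 0.60, 0.54 to 0.66) and the Tagln Acta2 subset (0.42, 0.35 to 0.48), lower in the Clu Comp subset (2943 and 2621 CPM, -0.17, -0.21 to -0.12), and at -0.06 (-0.16 to 0.05) in the Pi16+ Dpp4+ subset. The Clu Comp subset, with Cebpb at 940 and 1045 CPM, was 197 of 1133 FAP-like cells in Ctrl and 281 of 1187 in dKO. The part of this mix in the class ratios of Cebpb and Cebpd was not tested. Klf4 was highest in the Pi16+ Dpp4+ subset, at 907 CPM in Ctrl and 1083 CPM in dKO, and lowest in the cycling subset led by Hist1h2ao and Hmmr, at 74.8 and 132 CPM. In the Cxcl5+ activated subset it was at 228 and 322 CPM, 0.50 (0.32 to 0.68). It was lower in dKO in the Tenm2 Shisa3 subset, at 464 and 241 CPM, -0.95 (-1.86 to -0.10), from 47 and 16 UMIs. The Clu Comp subset (-0.09, -0.20 to 0.02) and the subset led by Fmo2 and Gdf10 (-0.13, -0.46 to 0.20) were on the same side, with intervals that held 0. The other subsets were higher in dKO. In the Pi16+ Dpp4+ subset Pparg had 3 UMIs in Ctrl and 0 in dKO, and Cebpa 7 and 11.

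Fabp4 in FAP-like cells was at 39.1 CPM in Ctrl (628 UMIs, 36.1 to 42.3) and 6.54 CPM in dKO (109 UMIs, 5.37 to 7.89), a log2 ratio of -2.58 (-2.89 to -2.29). B cell-like and T cell-like cells, which should lack the gene, were at 24.6 CPM in Ctrl (14.8 to 38.5) and 8.07 CPM in dKO (2.96 to 17.6). Subtracting them left 14.5 CPM in Ctrl and -1.53 CPM in dKO FAP-like cells. At 2000 UMIs per cell a Fabp4 UMI was found in 3.83% of FAP-like cells in Ctrl (2.76 to 5.16) and 1.15% in dKO (0.612 to 1.95), beside 6.25% and 1.09% of B and T cell-like cells, over the 1070 and 1133 FAP-like cells and the 192 of 261 and 183 of 224 B and T cell-like cells that reach this depth. The share of FAP-like cells is thus at background and is read neither as expression nor as a difference. Unthinned, the shares were 17.1% and 6.74% of FAP-like cells (median depths 12128 and 12080 UMIs) and 6.90% and 2.23% of B and T cell-like cells (2630 and 2882.5 UMIs).

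Few cells made up the Ctrl value. The 12 cells with most Fabp4 held 65.0% of the UMIs in Ctrl FAP-like cells and 34.9% in dKO, and 7 Ctrl cells and 1 dKO cell had 10 or more. The highest Ctrl cell had 123 UMIs and the highest dKO cell 12. The 10 endothelial markers summed to 112 CPM in Ctrl and 87.6 CPM in dKO FAP-like cells, with 10 of 10 lower in dKO. FAP-like cells with no endothelial-marker UMI (467 and 564) were at 15.2 and 5.50 CPM of Fabp4, a log2 ratio of -1.47. The part of endothelial RNA in the difference was not tested further.

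The other classes that do not make much Fabp4 showed the same side. Tenocyte-like cells had 135 UMIs in Ctrl, 82 of them in 1 cell, and 3 in dKO. Neutrophil-like cells had 44 and 1, dendritic cell-like cells 38 and 6, and MuSC-like cells 25 and 1. In each of the 8 FAP subsets the dKO level was the lower one, with 117 and 11 UMIs in the Pi16+ Dpp4+ subset and 37 and 0 in the Tenm2 Shisa3 subset. A single Ctrl cell held 99 of the 117, another 35 of the 37, and another 74 of the 105 in the cycling subset led by Hist1h2ao and Hmmr.

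**Figure D4:**
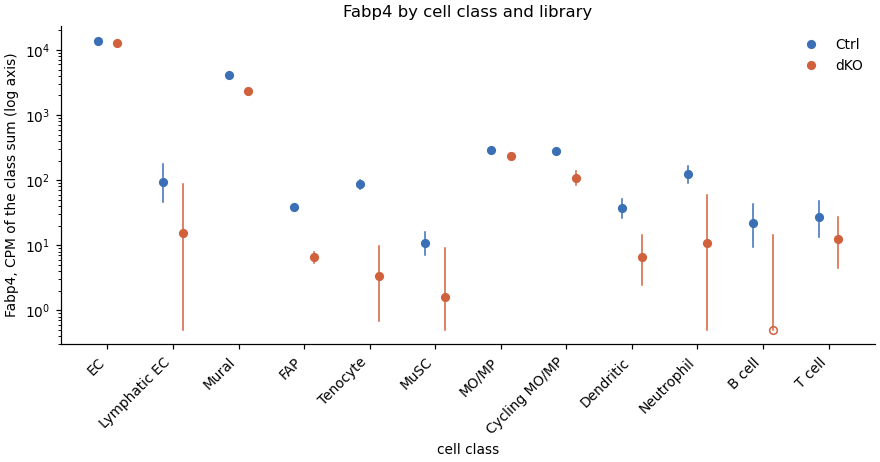
Fabp4 level by cell class (CPM of the class sum, log axis; Ctrl blue, dKO orange; lines are 95% Poisson intervals; the open circle is a class at 0 UMIs, and values and intervals are cut at the bottom of the axis). EC-like cells stand at 13964 and 12680 CPM, mural-like and MO/MP-like cells follow, and the dKO point is the lower one in all 12 classes.

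In EC-like cells, its own class, Fabp4 was close between the libraries. It was at 13964 CPM in Ctrl and 12680 CPM in dKO, a log2 ratio of -0.14 (-0.17 to -0.11), and 98.9% and 97.2% of the cells had a UMI. The capillary-like subset had the highest level and was the higher one in dKO, at 16566 and 18151 CPM, 0.13 (0.09 to 0.17). Venous-like cells were at 11360 and 10555 CPM, -0.11 (-0.16 to -0.05), and arterial-like cells at 5311 and 5703 CPM, 0.10 (-0.02 to 0.22). Capillary-like cells were 308 of 465 EC-like cells in Ctrl and 99 of 179 in dKO. Over all cells Fabp4 was at 1123 CPM in Ctrl and 453 CPM in dKO, -1.31 (-1.34 to -1.28), with fewer EC-like cells in dKO. With EC-like and lymphatic EC-like cells left out it was at 226 and 92.7 CPM, -1.28 (-1.35 to -1.22). Of the Fabp4 UMIs then left, 8584 in Ctrl and 2732 in dKO, the mural-like class held 3418 and 534. That class made up 2.67% of the Ctrl library and 1.23% of the dKO library. The MO/MP-like class held 3755 and 2007 of them, at a log2 ratio of -0.31. How far this mix of classes enters the value of -1.28 was not tested.

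Mural-like cells had Fabp4 at 4159 CPM in Ctrl and 2307 CPM in dKO, a log2 ratio of -0.85 (-0.98 to -0.72). The 13 of 107 Ctrl and 9 of 38 dKO cells with no endothelial-marker UMI were at 351 and 108 CPM, and the others at 4488 and 2855 CPM. Endothelial markers moved with Fabp4, at 2721 and 1443 CPM over all mural-like cells (9 of 10 lower in dKO). Fabp4 per endothelial-marker UMI was 1.53 and 1.60 there, beside 1.52 and 1.499 in EC-like cells. In FAP-like cells that quotient was 0.350 and 0.0747. In MO/MP-like cells it was 4.78 and 5.12, and the 978 and 879 of them with no endothelial-marker UMI were still at 256 CPM (245 to 268) and 196 CPM (185 to 207).

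MO/MP-like cells also carried Fabp4 and held most of the Plin2 UMIs. Fabp4 there was at 287 CPM in Ctrl and 232 CPM in dKO, a log2 ratio of -0.31 (-0.39 to -0.23), or -0.12 at 2000 UMIs per cell. Plin2 was at 893 CPM (877 to 910) and 917 CPM (897 to 938), 0.04 (-0.00 to 0.08), or 0.15 at 2000 UMIs per cell. FAP-like cells were at 74.6 and 72.2 CPM, -0.05 (-0.16 to 0.07), or 0.08 with no doublets removed. The MO/MP-like cells had endothelial markers at 60.1 and 45.4 CPM, with 10 of 10 lower in dKO, and stromal markers at 503 and 359 CPM.

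There were 6 clusters in the class, of which 5 are described, each given by its leading genes. Plin2 and Fabp4 were both highest in the cluster led by Spp1 and Syngr1, with Gpnmb and Trem2 (379 and 276 cells): Plin2 at 1321 and 1335 CPM, 0.01 (-0.04 to 0.07), and Fabp4 at 452 and 398 CPM, -0.19 (-0.29 to -0.08). The cluster led by Cd209f and Fcna had Fabp4 at 147 and 51.3 CPM, -1.52 (-2.02 to -1.04), with endothelial markers at 95.6 and 61.5 CPM. In the cluster led by Dcstamp and Ear2, Fabp4 was at 356 and 360 CPM, 0.02 (-0.16 to 0.19).

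**Figure D5:**
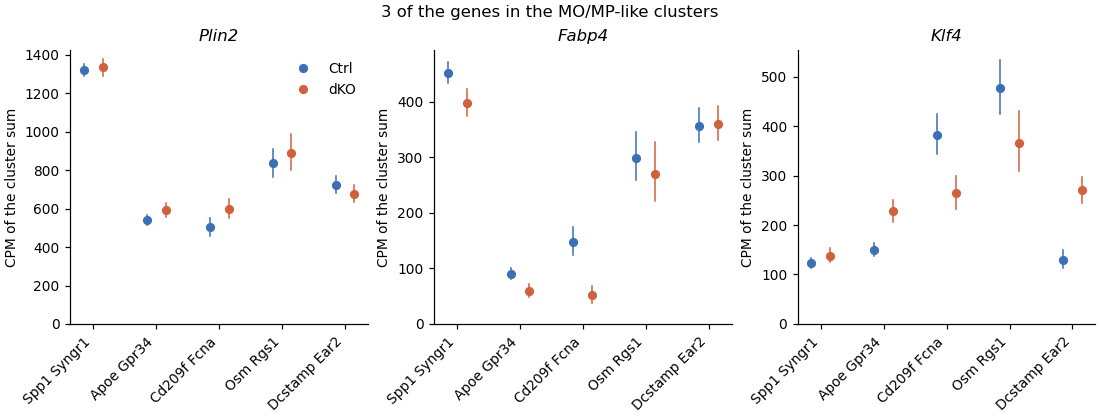
Plin2, Fabp4 and Klf4 in 5 of the 6 MO/MP-like clusters (CPM of the cluster sum, linear axes from 0; Ctrl blue, dKO orange; lines are 95% Poisson intervals). The Spp1 Syngr1 cluster is highest for Plin2 and Fabp4, and Klf4 is higher in dKO in the Dcstamp Ear2 cluster and lower in the Cd209f Fcna cluster.

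Klf4 went in opposite directions between the clusters. In the Dcstamp Ear2 cluster it was at 130 and 270 CPM, a log2 ratio of 1.05 (0.80 to 1.31), and in the Apoe Gpr34 cluster at 150 and 228 CPM, 0.60 (0.41 to 0.79). In the Cd209f Fcna cluster it was at 382 and 265 CPM, -0.53 (-0.77 to -0.30), and in the Osm Rgs1 cluster at 477 and 367 CPM, -0.38 (-0.67 to -0.09). Cebpb was higher in dKO in 6 of 6 clusters, from 0.13 in the Spp1 Syngr1 cluster to 0.49 in the Cd209f Fcna cluster. Cebpd had an interval above 0 only in the Apoe Gpr34 cluster, at 0.81 (0.50 to 1.11). It was at -0.24 (-0.73 to 0.23) in the Spp1 Syngr1 cluster and at -0.34 (-1.03 to 0.33) in the Osm Rgs1 cluster. The other clusters were on the higher side in dKO. Pparg intervals contained 0 in 6 of 6, and its level ran from 9.67 CPM (9 UMIs) to 43.2 CPM (28 UMIs) in Ctrl and from 12.3 CPM (12 UMIs) to 30.1 CPM (44 UMIs) in dKO.

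Other genes of lipid handling and of the adipogenic program, 61 in 6 lists, were counted by the same rule. In FAP-like cells 0 of 42 with at least 100 UMIs were higher past 2-fold and 2 lower, against 0.755% and 0.459% of all genes, with a median log2 ratio of -0.04 beside -0.05 over all genes. The 2 were Dlk1, a surface protein that restrains fat cell formation (46.4 and 20.7 CPM, -1.16, -1.35 to -0.98), and Cd36, a fatty acid receptor (136 and 33 UMIs, -2.10, -2.69 to -1.54). Endothelial cells also express Cd36, and MO/MP-like cells carried it too, at levels given below. In EC-like cells 0 of 25 were higher and 1 lower, the glycerol channel Aqp7 (113 and 47.0 CPM, -1.26, -1.77 to -0.78). Aqp7 was a leading gene of the capillary-like subset, which was 308 of 465 EC-like cells in Ctrl and 99 of 179 in dKO. The part of this mix was not tested. The shares of all genes in EC-like cells were 0.612% and 1.16%, and the list median was -0.18 beside -0.02. In MO/MP-like cells 0 of 32 were higher and 1 lower, the Notch target Hes1 (35.4 and 10.1 CPM, -1.81, -2.16 to -1.48), against 1.17% and 0.574% of all genes, with a median of -0.05 beside 0.00. In mural-like cells 1 of 13 was higher, Hes1 (192 and 531 CPM, 1.47, 1.11 to 1.82), and 3 lower, named after their values were seen: Lpl at -1.19, Fabp5 at -2.07 and Gpihbp1 at -2.98, beside the lower endothelial markers of the same cells. The shares of all genes in mural-like cells were 1.66% and 3.53%, and the list median was -0.24 beside 0.04.

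Within MO/MP-like cells the list of fatty acid uptake and lipoprotein lipase had the lowest median of the 6 lists, -0.62 over 7 genes with none past 2-fold, and the 5 others lay between -0.07 and 0.31. The list is named here because its median was the lowest. Endothelial markers were also lower in dKO MO/MP-like cells, as given above, and their part was not tested. In mural-like cells the same list was at -1.61 over 4 genes, 3 of them the genes just named. In MO/MP-like cells Lpl was at 1441 CPM in Ctrl and 936 CPM in dKO (-0.62, -0.66 to -0.58), Cd36 at 870 and 510 CPM (-0.77, -0.82 to -0.72) and Fabp5, the close relative of Fabp4, at 2075 and 1829 CPM (-0.18, -0.21 to -0.15). In EC-like cells Gpihbp1, which anchors lipoprotein lipase on capillaries, was at 786 and 528 CPM (-0.57, -0.72 to -0.43), Lpl at 508 and 486 CPM and Fabp5 at 1266 and 950 CPM (-0.41, -0.53 to -0.30). Gpihbp1 and Lpl were leading genes of the capillary-like subset, whose share of EC-like cells was lower in dKO, and the part of this was not tested. In FAP-like cells Lpl was at 569 and 527 CPM and Fabp5 at 26.7 and 34.6 CPM (0.37, 0.19 to 0.55). The single dKO cell held 102 of the Fabp5 UMIs, and without the cell of most G0s2 UMIs in each library the Fabp5 ratio was 0.09 (-0.10 to 0.28).

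The genes most like each member were found from log2(CPM + 1) over 22 sums, 11 classes in each of the 2 libraries, which share libraries and free RNA, so the correlations are a description. Fabp4 was most like Adgrl4, Gpihbp1 and Myct1 (Pearson r 0.914, 0.907 and 0.898), and Klf4 like Eng and Mtmr11 (0.913 and 0.904). Cebpd was most like Pkd2, Gadd45g and Nrep (0.933, 0.925 and 0.923), Cebpb like Msrb1, Prdx5 and Pilra (0.881, 0.860 and 0.859), and G0s2 like Morrbid, Prdx5 and Slc27a4 (0.853, 0.848 and 0.841). Plin2 was most like Fbxw4, Tmem106a and Dnase1l1 (0.901, 0.883 and 0.883), Pparg like Gnb1, Tmem51 and Tnfrsf11a (0.896, 0.891 and 0.864) and Cebpa like Cln8, Akr1a1 and Fam129b (0.849, 0.842 and 0.838).

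In the mouse genome (GRCm38, GENCODE M21) the genes lie apart: Pparg at chr6:115360951-115490399, Cebpa at chr7:35119293-35121928, Cebpb at chr2:167688915-167690418, Cebpd at chr16:15887286-15891031 and Adipoq at chr16:23146536-23158028 on the plus strand, and Fabp4 at chr3:10204088-10208576, Plin2 at chr4:86648386-86670060, G0s2 at chr1:193272161-193273217 and Klf4 at chr4:55527143-55532466 on the minus strand. Cebpb, Cebpd and G0s2 overlap the genes Tmem189, Spidr and Lamb3 on the opposite strand, and whether the counting used strand is not given in the sources used here, so reads of such pairs may be mixed.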

How the data were processed

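UMI counts of single cells from hind limb muscle were analysed in 1 Ctrl and 1 dKO library (10x Chromium, Illumina HiSeq). The authors deposited raw counts per gene and cell for called barcodes, with no normalization; the file headers give software version 3.0.2, whereas the submitters' processing notes name Cell Ranger 7.0.0, Seurat 4.3.0 and mm10. The members and lists were chosen with earlier results of these data known. Positions come from GENCODE M21, which matched 97.9% of symbols; no mitochondrial symbol is present.

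Cells with at least 500 genes were kept (192 Ctrl and 154 dKO cells left out). Scrublet (scanpy 1.11.5) called 4 and 14 cells, too few to have worked, so the 7.5% with the highest scores were removed (325 and 250), and the order of barcodes decided among 52 and 28 tied cells. Libraries were integrated in Seurat 5.3.0 (R 4.3.3) on 2000 variable genes without the 9 members and the wider lists, and clustered on 40 dimensions at a resolution of 0.8. FAP-like cells were sub-clustered at 0.4 and EC-like cells at 0.2. A cluster was named from markers with at least 3 enriched 2-fold, with the choice among lists made by how many of the 10 leading genes each held; details of this rule were set after clusters had been seen, and 28 and 14 cells stayed unnamed. Counts were summed per class and library and scaled to CPM. Intervals are exact Poisson for levels, exact conditional binomial for ratios and exact binomial for shares, with 3 counts as the limit a count of 0 allows. Cells were thinned to 2000 UMIs for shares. Genes with at least 100 UMIs were compared at 2-fold.

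Named genes were all members, list genes past 2-fold (up to 4 each way), the partners Lpl, Gpihbp1, Plin1 and Fabp5, and the 3 genes most like each member; 1 MO/MP-like cluster and 1 gene most like Klf4 are not reported here. The code was tested on simulated data. Raw counts were also scaled to the median gene ratio, and classes refitted under other filters.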

Additional observations from a re-analysis of the deposited data

How the results depend on the processing

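No paired analysis was possible because each group has 1 library. Fabp4 in FAP-like cells was at a log2 ratio of -2.58 and stayed past 2-fold under the 9 alternatives that gave a ratio (-2.88 to -1.47). It was -2.16 at 2000 UMIs per cell and -1.47 in cells with no endothelial-marker UMI. Subtracting the B and T cell level gave no ratio, since it left 14.5 CPM in Ctrl and -1.53 CPM in dKO. The share of these cells with Fabp4 was at background, as given above. At 2000 UMIs Fabp4 was left with fewer than 100 UMIs, so the count of genes lower in FAP-like cells went from 1 to 0. Fabp4 in EC-like cells (-0.14) was -0.31 with no doublets removed, -0.093 as a mean over cells, -0.11 scaled to the median gene ratio and -0.18 without the highest cell of each library, lower in dKO in 8 of 8. Fabp4 in mural-like cells went from -0.85 to past 2-fold, so the count lower there went from 0 to 1, with a filter of 200 genes and 1000 UMIs and without the highest cell. Wider-list genes higher in FAP-like cells went from 0 to 2 with a minimum of 20 UMIs and to 1 at 1.5-fold; genes lower in EC-like cells went from 1 to 3 under both, and in MO/MP-like cells from 1 to 5 at 1.5-fold. Added after the data were seen, leaving out the cell of most G0s2 in each library moved the C1qtnf3 Cdkn1c subset from 0.71 to 0.04 for G0s2 and from 1.72 to 0.28 for Pparg, and in FAP-like cells turned the adipocyte markers from 0.41 to -0.18 and Pparg from 0.67 to -0.05. Of 213 log2 ratios under alternatives, 192 kept their sign, and the 21 others were of values whose interval held 0. Genes under 100 UMIs in a class, Pparg in FAP-like cells among them, are limited by depth.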

Other observations

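Lymphatic EC-like cells, 18 in Ctrl and 13 in dKO, had Klf4 at 1062.5 CPM in Ctrl (112 UMIs) and 360 CPM in dKO (23 UMIs), a log2 ratio of -1.56 (-2.28 to -0.91), and 39 of the Ctrl UMIs were in 1 cell. Cebpb there had 29 and 5 UMIs. Fabp4 in the same cells had 10 UMIs in Ctrl, 9 of them in 1 cell, and 1 in dKO, beside an endothelial marker sum of 4848 and 5800 CPM.

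Cycling MO/MP-like cells (105 and 35) had Pparg at 8.55 CPM in Ctrl and 25.6 CPM in dKO (16 and 15 UMIs, a log2 ratio of 1.58, 0.46 to 2.69) and Cebpa at 31.5 and 13.6 CPM (-1.21, -2.49 to -0.14). Fabp4 was at 277 and 109 CPM in them, with 145 of the 519 Ctrl UMIs in 1 cell. Neutrophil markers summed to 20740 CPM in the Ctrl cells of this class and 383 CPM in the dKO cells, and their part in these values was not tested.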
